A study of Mus musculus with 10 samples.

Results

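The Id genes Id1, Id2, Id3 and Id4 encode inhibitors of DNA binding, and their messenger RNA was followed here through the mouse testis and 2 preparations of spermatocytes. The members were found as the table entries whose gene symbol equals Id1, Id2, Id3 or Id4, which gave 4 genes of the 36806 listed. The family was chosen by the FPKM of the tables themselves, because Id3 was higher in the second condition of each of the 4 tables. The values that compare the 2 conditions of a table are therefore a description and carry no test here. The series compared C57BL/6 mice of the genotypes Ago4+/+ and Ago4-/-, which were littermates. Ago4 encodes an Argonaute, a protein that binds small RNAs. The mRNA material was whole testis at an age of 3 days, whole testis at 8 days, and leptotene/zygotene cells and pachytene cells from animals aged 70 days. Each genotype and stage had 1 library, and the labels do not say whether animals were pooled or where Ago4 was inactivated beyond its genotype. The 2 small RNA libraries of pachytene cells were not used here.

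The values come from 4 tables, for day 3, pre-meiotic, leptotene/zygotene and pachytene material, each with 2 conditions that are named only by number. The labels do not say which number is which genotype, or whether 1 order holds throughout the tables. Every comparison is therefore between the second and the first condition of 1 table, with no genotype attached. The pre-meiotic table could hold testis of either young age and was tied to neither. With 1 library behind each condition, no value has a replicate error, and any p-value or q-value compares 2 libraries and not 2 genotypes. Levels are FPKM, the number of sequenced fragments per length of transcript and per size of library. Since FPKM are divided by length, levels of different genes can be set beside each other.

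Id proteins carry a helix-loop-helix domain, with which they pair, but lack the basic stretch that touches DNA. They pair with E proteins (Tcf3, Tcf4 and Tcf12), which otherwise bind E-box motifs together with tissue-specific partners of the basic helix-loop-helix (bHLH) class, and so hold back the genes that those pairs would switch on. Bone morphogenetic proteins (BMPs) are well-known inducers of Id genes, through receptor kinases and the SMAD proteins. In the testis, Id4 is known as a marker of the spermatogonial stem cell pool, and Id proteins are also present in Sertoli, endothelial and other somatic cells.

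In the tables, Id1 (ENSMUSG00000042745) lies at chr2:152561987-152563146, Id2 (ENSMUSG00000020644) at chr12:25778666-25780957, Id3 (ENSMUSG00000007872) at chr4:135699412-135701670 and Id4 (ENSMUSG00000021379) at chr13:48139600-48359405, counted from 1 on a genome build not given in the sources used. The loci of Id1, Id2 and Id3 span 1160, 2292 and 2259 bp. The locus of Id4 spans 219806 bp because it is joined with A330033J07Rik, a transcript listed over the same span. A330033J07Rik was at 0.109 and 0.147 FPKM in the day 3 table, 0.0802 and 0.0916 in the pre-meiotic table, 0.0701 and 0.129 in the leptotene/zygotene table and 0.130 and 0.164 in the pachytene table. These levels are far below those of Id4 in the same conditions. The kit is not stated to keep the strand, so which of 2 overlapping genes a read came from is not known from its strand.

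The start regions of 3 of the 4 genes matched a RefSeq promoter by symbol and are shown with the motif matches found in them. Each window holds 250 bases before and 50 after the start site on GRCm38.p6, a build with other coordinates than the tables. Capitals mark 4 motifs searched on both strands, namely the E-box CANNTG, the GC-rich SMAD element GGCGCC, the CCAAT box CCAAT and the TATA core TATAA. The windows are Id2 at chr12:25096043-25096342 on the minus strand, Id3 at chr4:136143572-136143871 on the plus strand and Id4 at chr13:48260866-48261165 on the plus strand.
Id2: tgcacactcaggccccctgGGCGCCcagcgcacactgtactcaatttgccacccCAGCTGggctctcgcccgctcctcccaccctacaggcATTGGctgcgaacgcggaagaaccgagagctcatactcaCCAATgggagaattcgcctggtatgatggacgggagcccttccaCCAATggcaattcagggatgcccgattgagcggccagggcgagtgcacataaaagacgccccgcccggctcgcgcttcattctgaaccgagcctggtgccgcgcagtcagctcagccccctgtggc
Id3: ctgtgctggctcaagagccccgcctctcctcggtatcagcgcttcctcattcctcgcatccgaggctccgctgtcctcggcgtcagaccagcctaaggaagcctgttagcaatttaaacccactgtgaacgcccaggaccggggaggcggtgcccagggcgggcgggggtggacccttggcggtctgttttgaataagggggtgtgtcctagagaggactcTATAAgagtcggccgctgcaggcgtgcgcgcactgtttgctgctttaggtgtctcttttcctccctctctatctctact
Id4: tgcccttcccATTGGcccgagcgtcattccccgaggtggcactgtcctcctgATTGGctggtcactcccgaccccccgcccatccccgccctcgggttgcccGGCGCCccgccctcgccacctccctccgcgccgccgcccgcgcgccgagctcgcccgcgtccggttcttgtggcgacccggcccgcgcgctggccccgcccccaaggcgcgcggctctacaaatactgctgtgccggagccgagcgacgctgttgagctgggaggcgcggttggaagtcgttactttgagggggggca

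The Id2 window held 1 E-box (CAGCTG), 1 GGCGCC and 3 CCAAT boxes, the first bases of which lie between positions -231 and -76 from the start site. The Id3 window held none of these and instead a TATA core whose first base is at position -29. Only the exact letters TATAA were searched, and the Id2 window holds the near match CATAA before its start site. The Id4 window held 1 GGCGCC and 2 CCAAT boxes, both of the latter on the minus strand as ATTGG, and had the highest share of G and C, 73.3%, against 63.3% for Id2 and 60% for Id3. Of 32851 mouse promoter windows of the same length, 72.3% held an E-box, 11.9% GGCGCC, 37.4% a CCAAT box and 24.9% TATAA. A match is a run of letters in the window and not a measured binding site.

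Before the Id genes, the material was checked against its labels. Ago4, listed in the tables as Eif2c4, was at 0.897 and 1.23 FPKM in the first and second condition at day 3, 2.53 and 3.34 in the pre-meiotic table, 1.67 and 3.26 at leptotene/zygotene and 4.37 and 12.1 at pachytene. It was higher in the second condition of each table, and no genotype was inferred from it. Spermatid markers, which should be low in both spermatocyte preparations, summed to 48062 and 56959 FPKM over 8 genes in the leptotene/zygotene table and to 7483 and 9536 in the pachytene table. Leptotene and zygotene markers summed to 326 and 283 FPKM over 10 genes in the table of that name and to 677 and 543 in the pachytene table. The leptotene/zygotene table thus held more spermatid message and less of its own markers than the pachytene table, and its values are called by the table's name and not by a cell type. Relative depth, read from the spacing of low FPKM values, was 1.17 times higher in the first condition at day 3, 1.49 times higher in the second pre-meiotic condition, 1.09 times higher in the second leptotene/zygotene condition and 1.91 times higher in the first pachytene condition.

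Id1, Id2 and Id3 were abundant in the young testis tables and low in both tables of adult cells, whereas Id4 was highest in the pachytene table. The summed FPKM of the family was 148 and 249 in the 2 conditions at day 3, 79.6 and 119 in the pre-meiotic table, 7.99 and 11.1 at leptotene/zygotene and 24.2 and 34.1 at pachytene. The leading member also differed between tables. Id3 made up 45.4% and 43.8% of the sum at day 3, Id2 47.5% and 41.0% in the pre-meiotic table, and Id4 55.1% and 40.6% at leptotene/zygotene. At pachytene, Id4 made up 86.3% and 77.9%. The tables were normalised apart and whole tissue was set beside isolated cells, so stages were compared as levels with no test, and fewer cells of a type and less RNA per cell cannot be told apart.

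**Figure D1:**
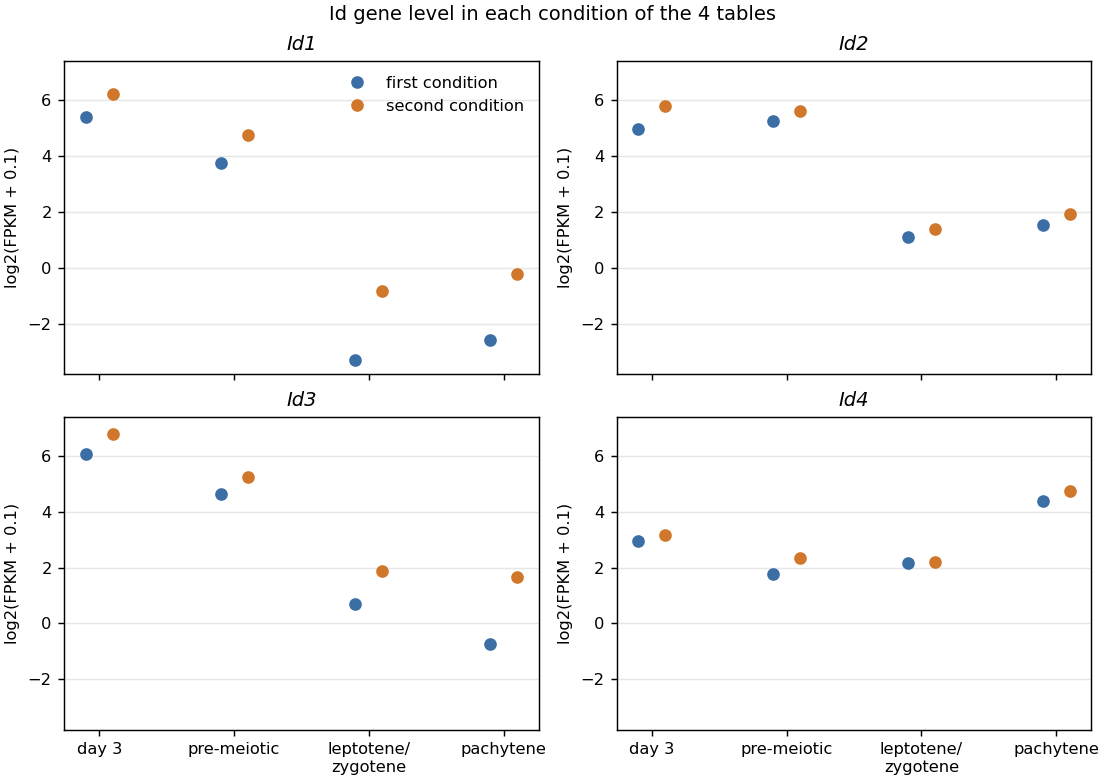
Level of each Id gene as log2(FPKM + 0.1) in the first (blue) and second (orange) condition of each table; each point is 1 library. The second condition lies above the first in all 16 pairs, Id1 to Id3 are low in both adult tables, and Id4 is highest at pachytene. Id1 in the first leptotene/zygotene condition is listed at 0 FPKM.

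Id3, the gene that led to the choice of the family, was at 67.3 and 108.9 FPKM at day 3, 25.0 and 38.2 in the pre-meiotic table, 1.53 and 3.59 at leptotene/zygotene and 0.493 and 3.09 at pachytene. The order of levels was day 3, pre-meiotic, then the 2 adult tables, and the pre-meiotic conditions did not overlap with either neighbour. The mean log2 level differed by -1.47 from day 3 to pre-meiotic and by -3.66 from pre-meiotic to leptotene/zygotene. The leptotene/zygotene and pachytene conditions overlapped, with a difference of -0.83.

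Id1 was at 42.2 and 75.2 FPKM at day 3 and at 13.5 and 27.0 in the pre-meiotic table. In the adult tables it was listed at 0 and 0.459 FPKM at leptotene/zygotene and at 0.0659 and 0.754 at pachytene. When FPKM are divided by the worth of 1 fragment, those adult values equal 0 and 2 fragments, and 1 and 6 fragments. These are the smallest whole numbers found. The lowest pre-meiotic value was 29.4 times the highest leptotene/zygotene value, which makes Id1 the member with the widest gap between those tables. The mean log2 level differed by -1.56 from day 3 to pre-meiotic and by -6.34 from pre-meiotic to leptotene/zygotene, where the listed 0 enters through the added 0.1.

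Id2 was at 30.9 and 55.7 FPKM at day 3 and at 37.8 and 48.9 in the pre-meiotic table, so that these tables overlapped. At leptotene/zygotene it was at 2.06 and 2.52 FPKM, and at pachytene at 2.76 and 3.71. Its lowest pre-meiotic value was 15.0 times its highest leptotene/zygotene value, a mean log2 difference of -4.18. Both pachytene values lay above both leptotene/zygotene values, but the lowest of the former was only 1.09 times the highest of the latter. The adult values rest on 12 and 16 fragments at leptotene/zygotene and on 61 and 43 at pachytene.

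Id4 followed another order. It was at 7.73 and 8.97 FPKM at day 3, 3.30 and 4.93 in the pre-meiotic table, 4.40 and 4.49 at leptotene/zygotene and 20.8 and 26.6 at pachytene. The lowest pachytene value was 4.64 times the highest leptotene/zygotene value and 2.32 times the highest day 3 value, with mean log2 differences of 2.38 and 1.49. The pre-meiotic and leptotene/zygotene conditions overlapped, with a difference of 0.14. The pachytene values rest on 630 and 421 fragments, and those of the pre-meiotic table on 23 and 51.

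**Figure D2:**
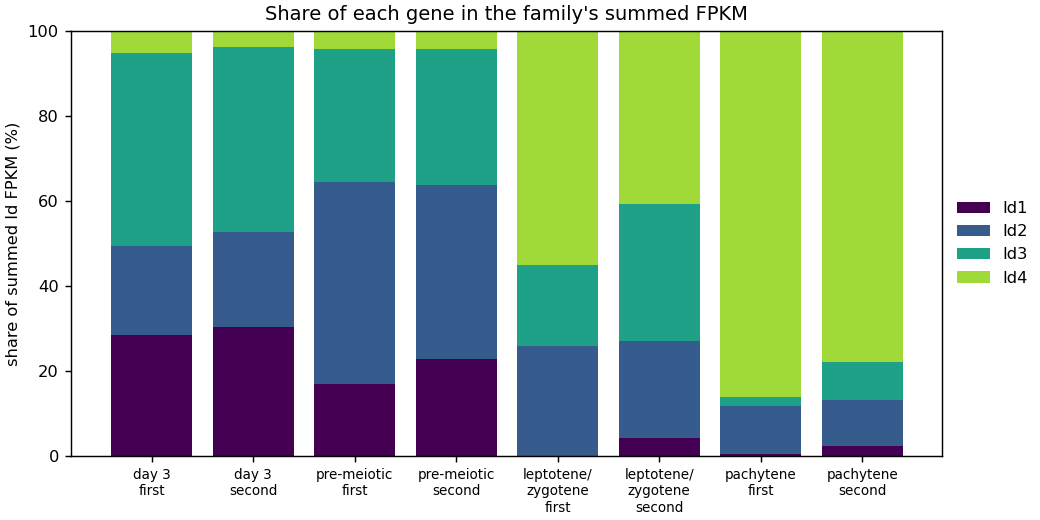
Share of each Id gene (percent of the summed Id FPKM) in each of the 8 conditions. Id1, Id2 and Id3 fill most of the bars of the day 3 and pre-meiotic tables, and Id4 fills 86.3% and 77.9% of the pachytene bars.

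All 4 genes were higher in the second condition of each table, that is in 16 of 16 pairs of gene and table. Of all genes that the authors marked as testable in a table, 51.1% were higher in the second condition at day 3, 50.2% in the pre-meiotic table, 44.1% at leptotene/zygotene and 50.5% at pachytene. Of 16068 genes, 1441 (8.97%) were higher in the second condition of all 4 tables, and of 893 with a locus of 1000 to 3000 bp, the class that holds Id1 to Id3, 131 (14.7%) were. The smallest log2 ratio was 0.83 for Id1 (day 3, among the tables with a ratio), 0.28 for Id2 (leptotene/zygotene), 0.61 for Id3 (pre-meiotic) and 0.03 for Id4 (leptotene/zygotene), so that Id4 lay closest to having no such pattern. These values chose the family and support nothing further.

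The log2 ratios of the second to the first condition, with 0.1 added to each FPKM, are given with the error implied by the test statistic of the authors' deposited tables, which covers counting and modelling within 2 libraries and not the spread between animals. For Id3 they were 0.69 ± 0.21 at day 3, 0.61 ± 0.17 in the pre-meiotic table, 1.18 ± 0.57 at leptotene/zygotene and 2.43 ± 0.66 at pachytene. For Id1 they were 0.83 ± 0.28, 0.998 ± 0.24 and, at pachytene, 2.36 ± 1.92, and no ratio was formed at leptotene/zygotene because the first condition is listed at 0. For Id2 they were 0.85 ± 0.28, 0.37 ± 0.14, 0.28 ± 0.55 and 0.41 ± 0.55, in the order of the tables. For Id4 they were 0.21 ± 0.33, 0.56 ± 0.36, 0.03 ± 0.38 and 0.35 ± 0.32. The ratio of Id3 was widest at pachytene. Id2 and Id4 lay within 1 implied error of 0 in the leptotene/zygotene table, as did Id2 at pachytene and Id4 at day 3.

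At a threshold of 0.05 on the q-value of the authors' deposited tables, 3 of 4 Id genes were called at day 3, where 15.4% of all tested genes were (5.03% higher and 10.4% lower), and 2 of 4 in the pre-meiotic table, where 1.19% were (0.48% higher and 0.712% lower). None of the 3 tested at leptotene/zygotene was called, where 2.2% of all genes were (0.817% higher and 1.39% lower), and 1 of 4 at pachytene, where 1.71% were (0.656% higher and 1.05% lower). All Id genes called were called higher. The called genes were Id1, Id2 and Id3 at day 3, Id1 and Id3 in the pre-meiotic table and Id3 at pachytene. At a threshold of 0.01, 2 of these 6 calls were made, Id1 in the pre-meiotic table and Id3 at pachytene. Nothing is read from these counts, since the contrasts are those by which the family was picked.

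**Figure D3:**
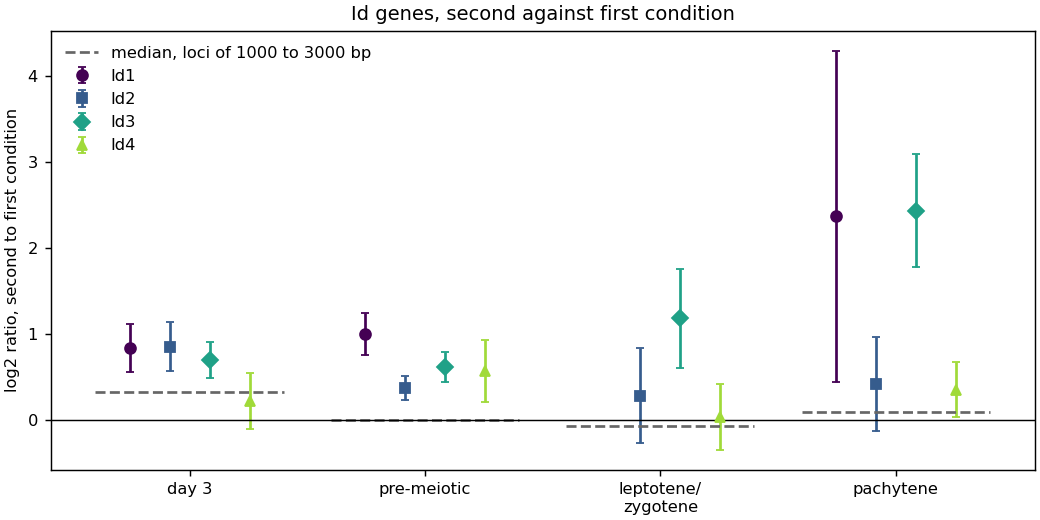
Log2 ratio of the second to the first condition for each Id gene and table, with bars of 1 implied error (counting and modelling of 2 libraries). Dashed lines mark the median of tested genes with a locus of 1000 to 3000 bp and at least 1 FPKM in 1 or both conditions. Id1 has no point at leptotene/zygotene, where its first condition is listed at 0. The day 3 line stands at 0.33, and the others lie close to 0.

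The length of the locus moved with the ratio at day 3. Tested genes of 1000 to 3000 bp had a median log2 ratio of 0.33 there, and 10.5% were called higher, whereas genes of 100000 bp or more had a median of -0.24, and 28.4% were called lower. Less the median of loci of 1000 to 3000 bp, the day 3 ratios were 0.51 for Id1, 0.52 for Id2 and 0.37 for Id3. No such value was formed for Id4, whose listed locus is joined with another transcript. RefSeq gives Id4 4913 bp, and genes of 3000 to 10000 bp had a day 3 median of 0.28, beside 0.21 for Id4. In the other tables, the median of short loci was -0.00 (pre-meiotic), -0.07 (leptotene/zygotene) and 0.08 (pachytene). The part of locus length in the day 3 ratios of the Id genes was not tested.

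Fragment numbers, where they could be recovered as whole numbers, show the counting error behind these ratios. At pachytene, Id1 had 1 and 6 fragments at unequal depth, a fold of 11.4 with an exact 95% counting interval from 1.39 to 527. Id4 at pachytene had a fold of 1.27, with an interval from 1.12 to 1.44. Id2 in the pre-meiotic table had a fold of 1.29 (193 and 370 fragments, interval 1.08 to 1.54). For Id2, the interval ran from 0.543 to 2.83 at leptotene/zygotene and from 0.889 to 2.02 at pachytene. For Id4, it ran from 0.896 to 2.56 in the pre-meiotic table and from 0.631 to 1.66 at leptotene/zygotene. None of the pairs of gene and table with an interval was called by the authors' q-value. No difference is read from an interval, since these contrasts are those by which the family was picked. Fragments of Id3 could not be recovered. Intervals cover counting error only and take the depth ratio of each table and the fragment numbers as known.

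Of the 3 E proteins, the direct partners of Id proteins, Tcf4 and Tcf12 fell at day 3 and no other call was made in any table. Tcf4 went from 49.4 to 21.6 FPKM (log2 ratio -1.19 ± 0.13) and Tcf12 from 60.5 to 31.6 (-0.93 ± 0.16), with q-values in the authors' deposited table of 0 and 9.83e-08. Tcf3 was at 104 and 105 FPKM and was marked as a failed test. At day 3, 10.4% of all tested genes were called lower. The loci of Tcf4 and Tcf12 span 343822 and 267568 bp, in the length class of which 28.4% of genes with at least 1 FPKM were. In the pre-meiotic table Tcf3 was at 67.2 and 71.7 FPKM, Tcf4 at 29.7 and 30.4 and Tcf12 at 62.6 and 58.4.

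All 3 E proteins were lower in the adult tables, as Id1 to Id3 were. Tcf3 was at 1.65 and 1.09 FPKM at leptotene/zygotene and 2.68 and 3.04 at pachytene. Tcf12 was at 4.65 and 3.67 and at 4.62 and 4.22. Tcf4, the lowest of the 3 in both young testis tables, was the highest here, at 12.1 and 11.8 FPKM at leptotene/zygotene and 13.5 and 8.72 at pachytene. The summed FPKM of the E proteins was 214 and 158 at day 3, and 18.4 and 16.5, then 20.8 and 16.0, in the adult tables.

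Among 26 tissue-specific bHLH genes, 2 were called at day 3 of 22 tested, where 15.4% of all genes were, and none in the other tables. Twist2, a mesenchymal repressor, rose from 8.00 to 15.3 FPKM (0.93 ± 0.33) and Tcfl5, a bHLH factor of spermatocytes, fell from 7.21 to 4.57 (-0.65 ± 0.21). Tcfl5 was at 23.2 and 19.7 FPKM in the pre-meiotic table, 172 and 170 at leptotene/zygotene and 237 and 283 at pachytene, and so ran against Id1 to Id3 over the tables. Of 10 Hes and Hey repressors, Notch targets for the most part, Heyl fell at day 3 from 59.8 to 36.0 FPKM (-0.73 ± 0.23). No other was called, and at day 3 10.4% of all genes were called lower. Their median log2 ratio was 0.13, 0.15, -0.12 and 0.90 in the order of the tables. At pachytene their sum went from 16.1 to 28.8 FPKM, with 6 of 9 tested higher, where 50.5% of all genes were. Most of the rise in that sum came from Bhlhe40 (5.63 to 12.7 FPKM) and Hes1 (2.95 to 6.82). The median there was the ratio of Hey2, a gene at only 0.187 and 0.435 FPKM.

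Proteins that bind or stabilise Id proteins gave no call in any table over 10 tested genes, by the authors' q-value. Usp1, a deubiquitinase that protects Id proteins from breakdown, was at 59.9 and 51.5 FPKM at day 3, 42.5 and 39.8 in the pre-meiotic table, 212 and 216 at leptotene/zygotene and 265 and 302 at pachytene. Wdr48, the partner that activates Usp1, was at 24.4 and 20.6 FPKM at day 3 and at 200 and 237 at pachytene. Both were highest at pachytene, as Id4 was, but Usp1 did not share the course of Id4. Usp1 was already high at leptotene/zygotene, where Id4, at 4.40 and 4.49 FPKM, overlapped with its pre-meiotic level. The retinoblastoma gene Rb1, whose product binds Id2, was at 38.9 and 31.8 FPKM at day 3 and at 16.4 and 16.9 at pachytene.

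**Figure D4:**
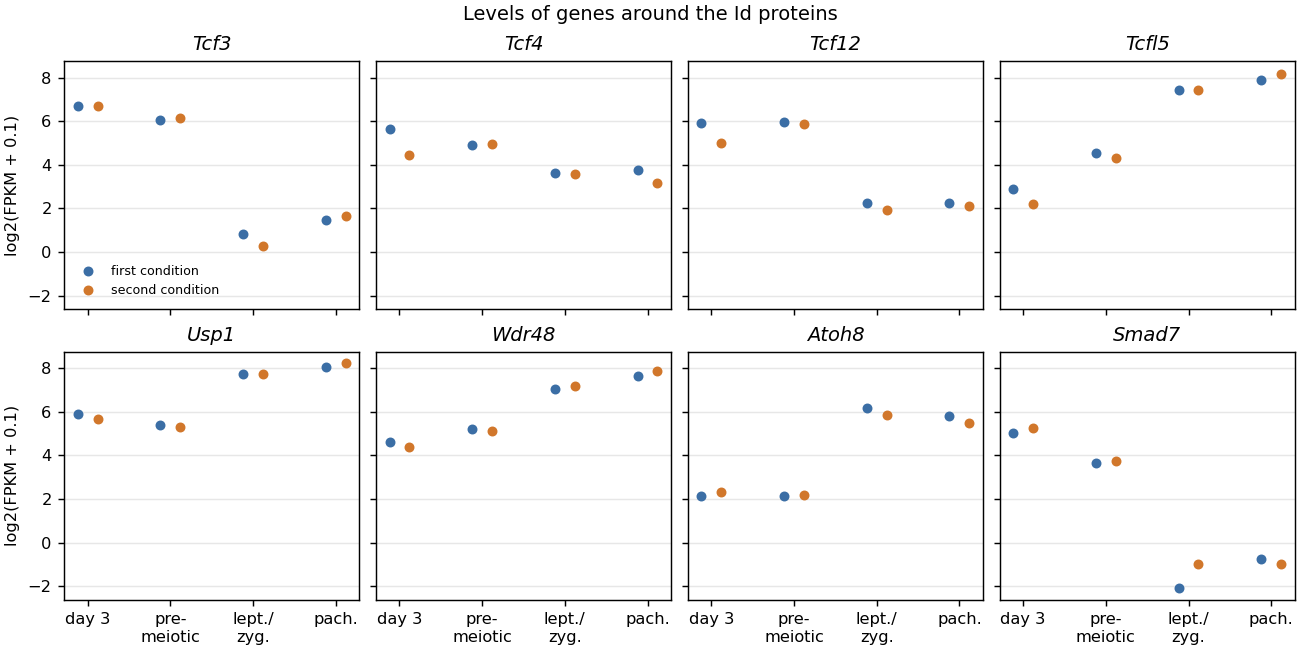
Level as log2(FPKM + 0.1) of the 3 E proteins, Tcfl5, Usp1, Wdr48, Atoh8 and Smad7 in both conditions of each table; each point is 1 library. Tcf3 and Smad7 are low in the adult tables, and Tcfl5, Usp1, Wdr48 and Atoh8 are high there.

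In the BMP and TGF-beta pathway, calls were made at day 3, the table with the most calls over all genes, and for 1 gene, Amh, in the pre-meiotic table. Of 18 ligand genes, Inhba, a subunit of activins, fell at day 3 from 71.5 to 21.1 FPKM (-1.76 ± 0.27), and Amh, the anti-Müllerian hormone of Sertoli cells, rose in the pre-meiotic table from 75.6 to 98.3 (0.38 ± 0.11). Of 14 receptor genes, 2 rose and 5 fell at day 3, where 5.03% of all genes were called higher and 10.4% lower. Amhr2, the receptor of Amh, went from 124 to 202 FPKM, and Eng, a co-receptor of endothelium, from 56.7 to 72.5. Bmpr2, the main type II BMP receptor, went from 21.1 to 3.98 FPKM (-2.38 ± 0.30), and Bmpr1a from 63.0 to 31.1 (-1.02 ± 0.21). Acvr1, Acvr2a and Acvrl1 fell with log2 ratios of -0.49, -0.77 and -0.56. The median over the 14 receptors at day 3 was -0.50, beside 0.03 over all genes tested. Of these receptors, 12 have a locus of at least 30000 bp, and genes of 30000 to 100000 bp and of 100000 bp or more had medians of -0.13 and -0.24, with 18.5% and 28.4% called lower.

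Of the 6 SMADs, which carry the signal from these receptors to the nucleus, 3 fell at day 3, where 10.4% of all genes did, and none was called in the other tables. All 6 loci span at least 30000 bp, in the length classes with 18.5% and 28.4% called lower. Smad3 went from 59.0 to 23.3 FPKM (-1.34 ± 0.22), Smad2 from 70.2 to 52.7 (-0.41 ± 0.11) and Smad5 from 54.1 to 39.8 (-0.44 ± 0.15). Smad4, the shared partner, was not called, with log2 ratios of -0.30 at day 3, -0.48 in the pre-meiotic table, -0.51 at leptotene/zygotene and -0.63 at pachytene. Smad1 was at 13.8 and 13.5 FPKM at day 3, 12.1 and 12.3 in the pre-meiotic table, 4.98 and 3.83 at leptotene/zygotene and 10.9 and 12.2 at pachytene. Smad9 stayed below 1 FPKM in all 8 conditions. The median over the SMADs was -0.36 at day 3.

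Among 17 antagonists and inhibitors of the pathway, Sostdc1 rose at day 3 from 5.26 to 10.1 FPKM, and Chrdl1, Fstl1, Smurf1 and Smurf2 fell, with log2 ratios of -0.73, -0.64, -0.62 and -0.73. Over the pathway lists and the others joined, 10 genes rose and 20 fell at day 3 of 127 tested, beside 5.03% and 10.4% of all genes. Of the 20 that fell, 14 had a locus of at least 30000 bp, and of the 10 that rose, 7 had a locus below 10000 bp, which is the direction of the locus length pattern over all genes at day 3.

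Other genes that BMP signals are known to induce did not give a call in any table, with 9, 8, 6 and 8 of 9 tested from day 3 to pachytene. Their median log2 ratio was 0.25 at day 3, 0.14 in the pre-meiotic table, -0.21 at leptotene/zygotene and -0.18 at pachytene. Over the stages they did not share 1 course. Smad7, an inhibitory SMAD, was at 32.2 and 38.3 FPKM at day 3 and at 0.488 and 0.407 at pachytene, low where Id1 was low. Atoh8, a bHLH factor, was at 4.30 and 4.87 FPKM at day 3, 71.7 and 58.6 at leptotene/zygotene and 56.1 and 44.6 at pachytene, high in both adult tables. Bambi, a decoy receptor, lay between 2.40 and 8.40 FPKM in all 8 conditions.

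Among 7 cell cycle inhibitors, of which Cdkn1a is a known target of E proteins, 3 rose at day 3 and none was called in the other tables. Cdkn1a went from 6.96 to 13.9 FPKM (0.99 ± 0.26), Cdkn2c from 25.4 to 38.5 (0.60 ± 0.20) and Cdkn2d from 9.06 to 16.9 (0.89 ± 0.32). At day 3, 5.03% of all tested genes were called higher. Among loci of 1000 to 3000 bp and of 3000 to 10000 bp, 10.5% and 11.8% were. At a q-value of at most 0.01, 1 of the 3 calls was made, that of Cdkn1a. A link of these genes to the E proteins was not tested.

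Immediate early genes, the class switched on within minutes of a growth signal or of stress and of which Id genes are at times counted as members, gave all of the calls among the listed pathway genes in the adult tables. Of 21 tested, 9 rose and Egr3 fell at leptotene/zygotene, and 7 rose at pachytene, where 0.817% and 0.656% of all genes were called higher. Fos went from 13.9 to 40.4 FPKM at leptotene/zygotene and from 8.57 to 39.6 at pachytene, and Zfp36 from 12.4 to 43.8 and from 8.59 to 42.3. Their median log2 ratio was 1.06 and 1.27 in these tables, beside 1.18 and 2.43 for Id3. The other list genes tested there numbered 71 and 88. At day 3, Fos, Jun and Klf2 rose and Egr1, Egr2 and Egr3 fell.

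Markers of several somatic cell types and of blood were also higher in the second condition of the adult tables, where Id1 and Id3 were low, but not those of all types. Over all genes tested, 0.817% were called higher at leptotene/zygotene and 0.656% at pachytene, and 44.1% and 50.5% had a higher FPKM there. Stromal markers summed to 10.01 and 28.0 FPKM at leptotene/zygotene and to 4.24 and 14.4 at pachytene. In each, 8 of 8 genes were higher in the second condition and 2 were called. Endothelial markers summed to 11.0 and 20.0 FPKM (8 of 9 higher, 1 called) and to 7.92 and 17.9 (9 of 9 higher, 3 called), and none was at 0. Macrophage markers summed to 16.7 and 63.2 FPKM and to 7.59 and 48.6, with Cd68 and Lyz2 at 0 in the first leptotene/zygotene condition. At leptotene/zygotene 4 of 5 tested were higher and 2 were called, and at pachytene 4 of 7 were higher and 1 was called, with a median of 0.24. That 1 was H2-Ab1, a class II histocompatibility gene, at 3.35 and 43.5 FPKM, which makes up most of the second sum. Erythrocyte markers summed to 39.6 and 336 FPKM and to 6.47 and 17.2, with 5 of 5 higher in each, and 4 and 0 of them called. Peritubular and smooth muscle markers summed to 424 and 448 FPKM and to 140 and 131, while 5 of 7 and 6 of 7 single genes were higher, 5 and 3 of them called. Sertoli markers were at 69.2 and 50.3 FPKM (1 of 8 tested higher) and at 115 and 131 (7 of 10). Leydig markers were at 12.4 and 13.0 FPKM and at 42.9 and 36.7, with 1 of 5 tested higher in each table and medians of -0.11 and -0.26. No Sertoli or Leydig marker was called in these tables. The part of these cells in the Id3 ratios was not tested.

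In the young testis tables the same lists moved less evenly. At day 3, stromal markers summed to 5791 and 4327 FPKM with 2 of 8 higher, and endothelial markers to 158 and 128 with 4 of 9 higher, so these did not run with the higher Id levels there. Macrophage markers did, with 69.2 and 121 FPKM and 7 of 7 higher. Markers of undifferentiated spermatogonia, the cells for which Id4 is known, summed to 139 and 80.5 FPKM at day 3, where 0 of the 13 tested were higher, against 51.1% of all genes, and 6 were called lower, against 10.4%. Id4 was at 7.73 and 8.97 FPKM in those conditions. The shares at day 3 also moved with locus length. Of genes of 30000 to 100000 bp, 39.7% were higher and 18.5% called lower, and of those of 100000 bp or more, 34.5% and 28.4%. The part of locus length in the spermatogonial markers was not tested. In the pre-meiotic table stromal markers summed to 1608 and 2023 FPKM with 8 of 8 higher, and macrophage markers to 39.5 and 58.7 with 7 of 7 higher. Erythrocyte markers summed to 457 and 730 FPKM there, with 5 of 5 higher and 4 called, where 0.48% of all genes were called higher. Leptotene and zygotene markers went from 366 to 219 FPKM, with 0 of 10 higher and 7 called lower, where 0.712% of all genes were. The part of these lists in the Id ratios was not tested.

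**Figure D5:**
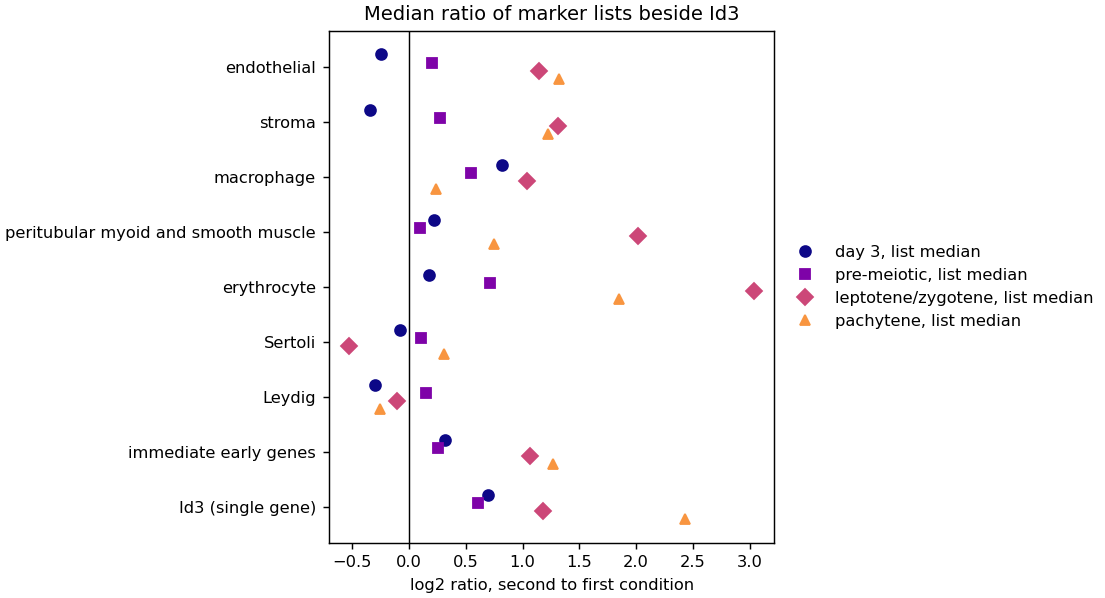
Median log2 ratio of the second to the first condition over the tested genes of 7 somatic and blood marker lists and the immediate early genes in each table, beside Id3 as a single gene. Stromal, endothelial and erythrocyte medians lie above 1 in both adult tables, and the stromal and endothelial medians lie below 0 at day 3.

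Across the 8 conditions, the profiles of Id1, Id2 and Id3 were alike and that of Id4 was not. Pearson's r of log2(FPKM + 0.1) was 0.97 between Id1 and Id2, 0.98 between Id1 and Id3 and 0.94 between Id2 and Id3, and -0.24, -0.31 and -0.36 between Id4 and Id1, Id2 and Id3. These are descriptions over 8 points that share 4 stages, and most of each r comes from the distance between young testis and adult cells. Of 22081 genes, 376 had an r of at least 0.98 with Id1, 1360 with Id2, 93 with Id3 and 2 with Id4. At this cut of r, more genes were thus like Id2 than like Id4. Such counts depend on the cut and on how far the levels of a gene spread over the tables. They do not show how rare a course is.

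The named genes most like Id3 were Gng11 (r = 0.996), a G protein subunit, Esam (0.995), an adhesion molecule of endothelium, Tk1 (0.994), a thymidine kinase of dividing cells, Bmp4 (0.993), a BMP ligand, and S100a6 (0.993). Bmp4 was at 5.06 and 5.58 FPKM at day 3, 2.34 and 2.81 in the pre-meiotic table, 0.256 and 0.470 at leptotene/zygotene and 0.0674 and 0.264 at pachytene. Its pachytene values thus lie near the added 0.1. With a pseudocount of 1, neither Bmp4 nor S100a6 was among the 5 genes most like Id3. Those most like Id1 were H2-T22, Tmem176a, Spry1, Scarf1 and Igfbp7, with r from 0.998 down to 0.996. Those most like Id2 were Gsta4, Rap1b, Ppan, Rpl19-ps11 and Zfp213, all at 0.997.

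Those most like Id4 were Fbxw9 (r = 0.985), H2afy3 (0.984), Tusc3 (0.976), Nicn1 (0.975) and Chst1 (0.971). H2afy3 was at 13.8 and 16.3 FPKM at day 3, 10.2 and 11.7 in the pre-meiotic table, 12.9 and 11.0 at leptotene/zygotene and 26.1 and 32.3 at pachytene. Like Id4, it was highest at pachytene and second highest at day 3.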

How the data were processed

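Per the labels' protocols, RNA was taken with Trizol and libraries came from a TruSeq RNA kit. The submitters' processing notes name Cuffdiff, Cufflinks 1.1.0, Bowtie 0.12.7 and TopHat 1.3.0. No build is given in the sources used here. Per the file headers, the authors deposited FPKM per condition, a test statistic (a score made by Cuffdiff) and a q-value for each of 36806 genes in 4 tables. No counts per library were used.

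The members and the 11 gene lists and 11 marker lists were chosen with earlier results of these data known. Genes were matched by symbol or by gene ID, and 31840 of 36806 IDs had a current symbol. A gene counted as tested where its status was OK with a finite ratio other than 0, and as called at a q-value of at most 0.05. Log2 ratios used a pseudocount of 0.1, which understates the change of low genes, and the implied error is the size of the deposited log2 ratio divided by that of the test statistic. Locus starts in the tables count from 0, since 3550 of 24579 spans then equal the RefSeq length against 331 otherwise, and 1 was added. Relative depth was the commonest ratio of FPKM below 1.5, and fragments were taken as whole within 0.06. The depth ratio was tested on simulated data, and the recovery of whole fragment numbers was not. The smallest numbers that made all adult values of a gene whole were taken, and multiples of them are possible. Named genes were the Id genes, Ago4, the E proteins, the SMADs, each called list member and the 5 named genes most like each Id gene. Tcfl5 beyond day 3, Usp1, Wdr48, Rb1, Atoh8, Smad7 and Bambi were added with their values in view. Some called immediate early genes appear in counts only. Python 3.11.15, pandas 2.3.3, numpy 2.4.6, scipy 1.17.1 and matplotlib 3.10.9 were used. Alternatives were other pseudocounts, scalings, filters and thresholds, and leaving out each condition.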

Additional observations from a re-analysis of the deposited data

How the results depend on the processing

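No paired analysis was possible because the conditions of the tables carry no genotype and no replicate number. Of 71 log2 ratios under the alternatives, 67 stayed within 1 implied error and 4 moved. Less the median of loci of 1000 to 3000 bp, an alternative chosen after seeing the data, the day 3 ratios were 0.51 (Id1), 0.52 (Id2) and 0.37 (Id3), and with a pseudocount of 1 the pachytene ratio of Id3 was 1.46. The pachytene ratio of Id1 ran from 0.72 (pseudocount 1) to 3.52 (pseudocount 0), inside its implied error of 1.92. Differences in log2 level between tables depended more on the setting. With FPKM rescaled to a fixed sum, they were 0.73 (Id2, pre-meiotic minus day 3), -4.65 (Id2, leptotene/zygotene minus pre-meiotic), -0.79 (Id3, pre-meiotic minus day 3), -0.36 and -0.32 (Id4, for the same 2 steps in order) and 2.72 (Id4, pachytene minus leptotene/zygotene), where the Id4 difference of -0.32 reversed its sign. With upper quartile scaling, they were -3.51 for Id2 and 0.81 for Id4 from pre-meiotic to leptotene/zygotene and 2.04 for Id4 from there to pachytene. With a pseudocount of 1, the step from pre-meiotic to leptotene/zygotene was -4.06 for Id1 and -3.75 for Id2. Leaving out 1 condition at a time gave reversed signs in 4 steps, whose ranges were -0.57 to 1.91 (Id1, pachytene minus leptotene/zygotene), -0.37 to 0.47 (Id2, pre-meiotic minus day 3), -2.05 to 0.38 (Id3, pachytene minus leptotene/zygotene) and -0.15 to 0.42 (Id4, leptotene/zygotene minus pre-meiotic). At a q-value of 0.01, 2 of the 6 Id calls were made, and calls over all lists were 4 higher in place of 10 at day 3, 0 in place of 1 in the pre-meiotic table, and 0 lower in place of 1 at leptotene/zygotene. With a pseudocount of 1, 2 of the 5 genes most like Id1, 3 of those most like Id2, 3 of those most like Id3 and 5 of those most like Id4 were named again. The cause was not tested. The pachytene ratio of Id1 rests on 1 and 6 fragments, and no value has a replicate.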
